A study of Mus musculus with 4 samples.

Results

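The MAF transcription factor family was examined in mouse induced regulatory T (iTreg) cells cultured with or without ferrous sulfate. The members were the gene rows whose Ensembl identifier maps to Maf, Maff, Mafg or Mafk, and 4 of the 47729 gene rows in the count table met this rule. All 4 passed the filter on low counts, as did 13732 genes in all. RNA was sequenced from C57BL/6 CD4 T cells of the spleen, activated for 4 days through CD3 and CD28 in medium that held TGF-β, IL-2 and antibodies blocking IL-4 and IFN-γ. Both groups shared this culture, and the labels name no allele or transgene. The FeSO4 group (2 libraries) also received 50 µM FeSO4, and the Mock group (2 libraries) received PBS. The study's methods state that paired samples came from 2 independent experiments, with no word on pooled animals, and the cells were cultured T cells rather than regulatory T cells taken from an animal.

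MAF proteins are basic leucine zipper (bZIP) factors that bind DNA as dimers at the MAF recognition element (MARE). The large MAF proteins, of which c-Maf (encoded by Maf) is the one known from T cells, carry a transactivation domain. In T cells c-Maf is best known for driving Il10 and Il4, and it is needed for the regulatory T cells of the gut. The small MAF proteins MafF, MafG and MafK lack such a domain, so their homodimers repress, and they act mostly as the obligate partners of the CNC factors (such as NRF2) and of BACH1 and BACH2 at antioxidant response elements (ARE), a MARE-like site. Heme, an iron compound, is known to bind and release BACH1 and BACH2 from these sites.

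The stretch of coding sequence that the 4 genes share is shown because it is a mark of the family, and because shared bases bear on how reads can be told apart. Each line gives 90 bases of the coding sequence in frame, 5′ to 3′ on the gene's own strand, covering the extended homology region that leads into the basic region. Capitals mark the 57 bases that are identical in all 4 genes.
Maf: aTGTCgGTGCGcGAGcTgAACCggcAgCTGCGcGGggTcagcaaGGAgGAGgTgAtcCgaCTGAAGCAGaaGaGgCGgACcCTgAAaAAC
Maff: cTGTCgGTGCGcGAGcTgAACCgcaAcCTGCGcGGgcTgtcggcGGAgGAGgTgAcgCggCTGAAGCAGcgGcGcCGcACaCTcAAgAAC
Mafg: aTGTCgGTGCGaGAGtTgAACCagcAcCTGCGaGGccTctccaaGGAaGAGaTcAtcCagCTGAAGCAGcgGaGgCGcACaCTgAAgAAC
Mafk: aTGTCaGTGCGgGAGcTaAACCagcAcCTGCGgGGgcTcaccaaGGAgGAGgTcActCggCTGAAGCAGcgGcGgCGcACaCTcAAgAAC
The sequences were read from the GENCODE M1 transcripts (build NCBIM37, mm9). They lie in coding exons at chr8:118229879-118229968 (minus strand, exon 1 of 3 of Maf), chr15:79187908-79187997 (plus strand, exon 3 of 3 of Maff), chr11:120490904-120490993 (minus strand, exon 3 of 3 of Mafg) and chr5:140276096-140276185 (plus strand, exon 3 of 3 of Mafk). Mafg and Mafk were the closest pair in this window (84.4% of bases identical), and Maf and Maff the most distant (75.6%). The coding sequence of Maf has 1143 bases and those of the small MAF genes 471 (Maff), 489 (Mafg) and 471 (Mafk), since only the large factors have the long activating part. Over the full length of these transcripts, and not only in this window, the longest run of identical bases between any 2 of them was 23 bases (Maff and Mafg, and Mafg and Mafk).

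The libraries held 35183187 to 40859178 reads in gene rows. Values are given as CPM, the read count scaled by the size of the library (after TMM), and a count of 3, the most that a count of 0 allows, was 0.0717 to 0.0876 CPM. The T cell markers Cd3e, Cd4, Il2ra, Foxp3 and Ctla4 were abundant in every library (summed 2990 to 3336 CPM). Foxp3 alone among them was called, and it was lower in FeSO4. It had 587 and 693 CPM in Mock against 376 and 472 CPM in FeSO4 (log2 fold change −0.59 ± 0.09 SE, adjusted p = 0.000223, edgeR quasi-likelihood test). Both NK cell markers had 0 counts in all 4 libraries. Markers of B cells (2.38 to 3.38 CPM summed over 4 genes), dendritic cells (4.26 to 6.16 CPM over 4) and CD8 T cells (9.04 to 11.02 CPM over 2) were low in both groups. The 5 macrophage and monocyte markers summed to 4.56 and 0.861 CPM in Mock against 0.379 and 0.810 CPM in FeSO4, and Lyz2 went from 164 and 8 counts in the Mock libraries to 0 in either FeSO4 library. The 5 erythroid and megakaryocyte markers, mostly Hba-a1, summed to 26.0 and 20.9 CPM in Mock against 38.4 and 33.2 CPM in FeSO4. The part of these few cells or of free RNA in the results for the MAF genes was not tested. In bulk RNA, fewer cells that express a gene and less RNA per cell cannot be told apart.

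The question put to the data was how added iron changed the transcripts of each MAF factor. Maf rose and Mafk fell in FeSO4, Mafg rose by less, and Maff did not pass the test. Of the 4 members, 3 were called at an adjusted p under 0.05, 2 higher and 1 lower. In the same fit 20% of the tested genes were called, 10.9% as higher and 9.17% as lower. The members were chosen with earlier results of these data known, so their count is a description only. The libraries of the 2 groups did not overlap for the same 3 members, which was also so for 59.5% of tested genes (30.1% with FeSO4 above, 29.4% with FeSO4 below). Under the threshold of the study (unadjusted p under 0.05 with a log2 fold change of 0.5 or more in size), which 10.4% of tested genes passed (4.67% as higher, 5.73% as lower), Maf was the 1 member called. Its log2 fold change was only just past that limit, and it was 0.49 with upper-quartile scaling, 0.44 with library size only and 0.46 without Mock replicate 1.

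**Figure D1:**
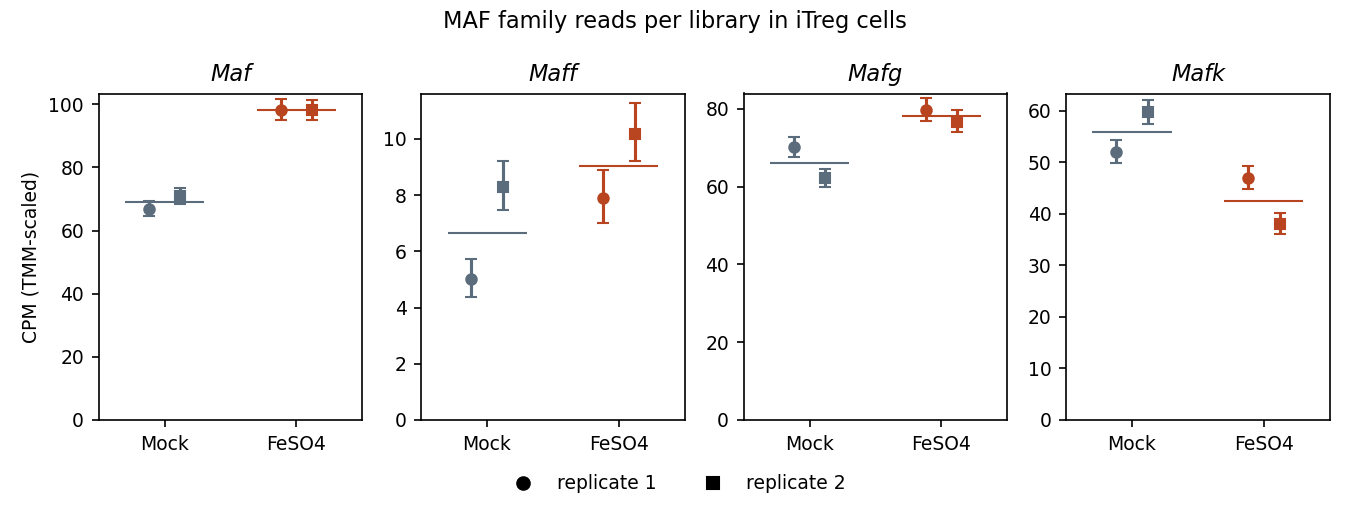
CPM (TMM-scaled, linear axis from 0) of each MAF gene in each library. Points are libraries (circles replicate 1, squares replicate 2), bars are 95% Wilson intervals for counting error, and lines are group means; both FeSO4 points lie above the Mock points for Maf and below them for Mafk, while the Maff libraries of the groups overlap.

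Maf (ENSMUSG00000055435, chr8:118206842-118231694, minus strand) is the large MAF factor of these cells. It had 2716 and 2970 counts in the Mock libraries and 3364 and 3635 in the FeSO4 libraries, although the FeSO4 libraries were the shallower ones. These were 66.9 and 71.0 CPM in Mock against 98.2 and 98.2 CPM in FeSO4. Both FeSO4 libraries lay above both Mock libraries, and the counting intervals of the groups were apart (64.5 to 73.6 CPM over the Mock libraries, 94.9 to 102 CPM over the FeSO4 libraries). The fitted log2 fold change was 0.51 ± 0.07 (SE, 95% interval 0.36 to 0.66, adjusted p = 0.000112, edgeR quasi-likelihood test), a fold of 1.42. The SD of the FeSO4 pair, 0.00676 CPM, was smaller than counting error alone, so the likeness of these 2 values is no measure of their precision. The exons of Maf overlap those of Gm15655 on the other strand, which had 0 counts in all libraries. The call held in each of the 12 alternative analyses, with log2 fold changes from 0.44 to 0.56.

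The large MAF genes Mafa and Nrl had few reads. Mafa, known from pancreatic beta cells, had 1 and 7 counts in Mock and 5 and 1 in FeSO4. Nrl, known from rod photoreceptors, had 1 count in FeSO4 replicate 2 and 0 elsewhere. Neither passed the filter on low counts, and no fold is given for them.

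Mafk (ENSMUSG00000018143, chr5:140267467-140278607, plus strand) encodes a small MAF protein and was the member that fell. It had 2112 and 2496 counts in Mock and 1610 and 1410 in FeSO4, or 52.1 and 59.7 CPM against 47.0 and 38.1 CPM. Both FeSO4 libraries lay below both Mock libraries, with the narrowest gap between replicate 1 of each group. The log2 fold change was −0.40 ± 0.10 (SE, 95% interval −0.61 to −0.18, adjusted p = 0.0109), a fold of 0.760. The call depended on replicate 2 of each group: without Mock replicate 2 the log2 fold change was −0.29 (adjusted p = 0.105), and without FeSO4 replicate 2 it was −0.25 (adjusted p = 0.164). Tmem184a, whose exons overlap those of Mafk on the other strand, had at most 2 counts in a library.

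Mafg (ENSMUSG00000051510, chr11:120486431-120494914, minus strand) encodes another small MAF protein. It had 2851 and 2600 counts in Mock and 2733 and 2841 in FeSO4, or 70.3 and 62.2 CPM against 79.8 and 76.8 CPM. Raw counts of the groups overlapped, and the groups came apart only after scaling by library size. The log2 fold change was 0.24 ± 0.08 (SE, 95% interval 0.07 to 0.41, adjusted p = 0.0413), a fold of 1.18 and the smallest change among the members called. This call was lost without Mock replicate 2 (0.16, adjusted p = 0.247), without FeSO4 replicate 1 (0.22, adjusted p = 0.202) and without FeSO4 replicate 2 (0.27, adjusted p = 0.0767), and also with DESeq2 (0.24, adjusted p = 0.0595). The exons of Mafg overlap those of Sirt7 on the same strand, where reads common to both cannot be assigned. Sirt7 itself had 114 and 110 CPM in Mock against 101 and 103 CPM in FeSO4 (log2 fold change −0.13 ± 0.07, adjusted p = 0.200).

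Maff (ENSMUSG00000042622, chr15:79177971-79189502, plus strand), the small MAF gene known to be induced by stress and inflammatory signals, was the least abundant member. It had 203 and 347 counts in Mock and 270 and 377 in FeSO4, or 5.00 and 8.30 CPM against 7.88 and 10.2 CPM. The groups overlapped, since Mock replicate 2 lay above FeSO4 replicate 1, and in each group replicate 2 was the higher library. The log2 fold change was 0.44 ± 0.22 (SE, 95% interval −0.01 to 0.90, adjusted p = 0.166), and this interval held both 0 and the value of Maf. The value hung on the Mock libraries: it was 0.12 (adjusted p = 0.759) without Mock replicate 1 and 0.86 (adjusted p = 0.0260) without Mock replicate 2. Without FeSO4 replicate 2 it was 0.24.

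**Figure D2:**
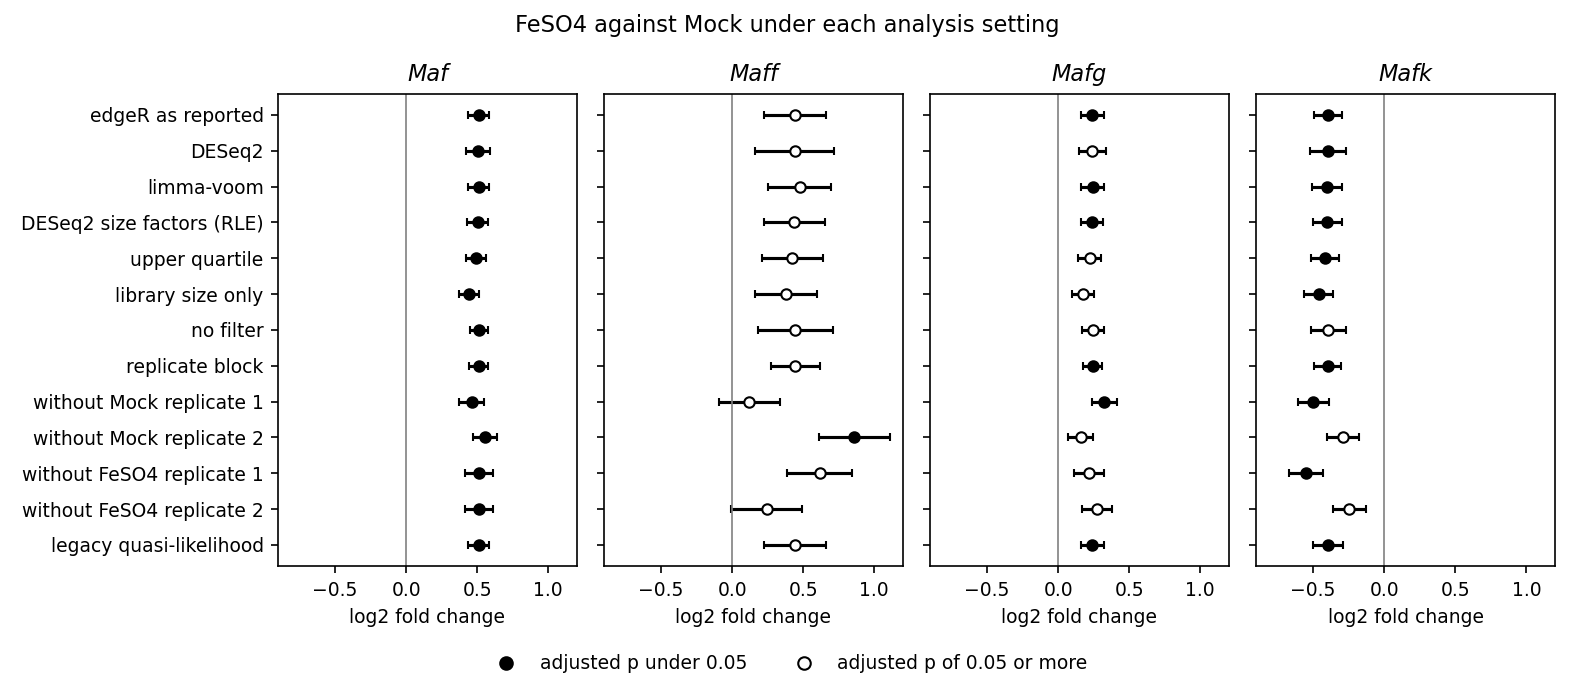
Log2 fold change (FeSO4 over Mock) of each MAF gene with its standard error (bars) in the reported edgeR fit and in each alternative. Filled points have an adjusted p under 0.05; Maf is filled in every row, whereas Mafg loses its call in 7 and Mafk in 3 of the 12 alternatives.

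The small MAF genes were next summed, since their proteins share partners and sites. Their summed level was 127 and 130 CPM in Mock against 135 and 125 CPM in FeSO4. The means of 129 ± 2.0 and 130 ± 6.8 CPM (SD, n = 2) were closer to each other than the FeSO4 libraries were, and the groups overlapped. Within this sum the makeup shifted. Mafk held 40.9 and 45.9% of the small MAF counts in Mock and 34.9 and 30.5% in FeSO4, while Mafg held 55.2 and 47.8% in Mock and 59.2 and 61.4% in FeSO4. The groups were apart for both shares. The ratio of Mafk to Mafg counts was 0.741 and 0.960 in Mock and 0.589 and 0.496 in FeSO4, and this ratio within a library does not depend on library scaling. Maff held 3.93 and 6.38% in Mock and 5.85 and 8.15% in FeSO4, with overlapping groups. With 2 libraries in each group an exact permutation test cannot give a p below 0.333, so none was run on these shares.

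The balance of Maf to the small MAF genes rose. The log2 ratio of Maf counts to summed small MAF counts was −0.93 and −0.87 in Mock and −0.46 and −0.35 in FeSO4. The group means were −0.90 ± 0.04 and −0.40 ± 0.08 (SD, n = 2), a difference of 0.50, and it stayed between 0.45 and 0.55 when each library was left out in turn. The ratio of Maf to Mafk counts, the members that moved furthest apart among those called, was 1.29 and 1.19 in Mock and 2.09 and 2.58 in FeSO4.

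**Figure D3:**
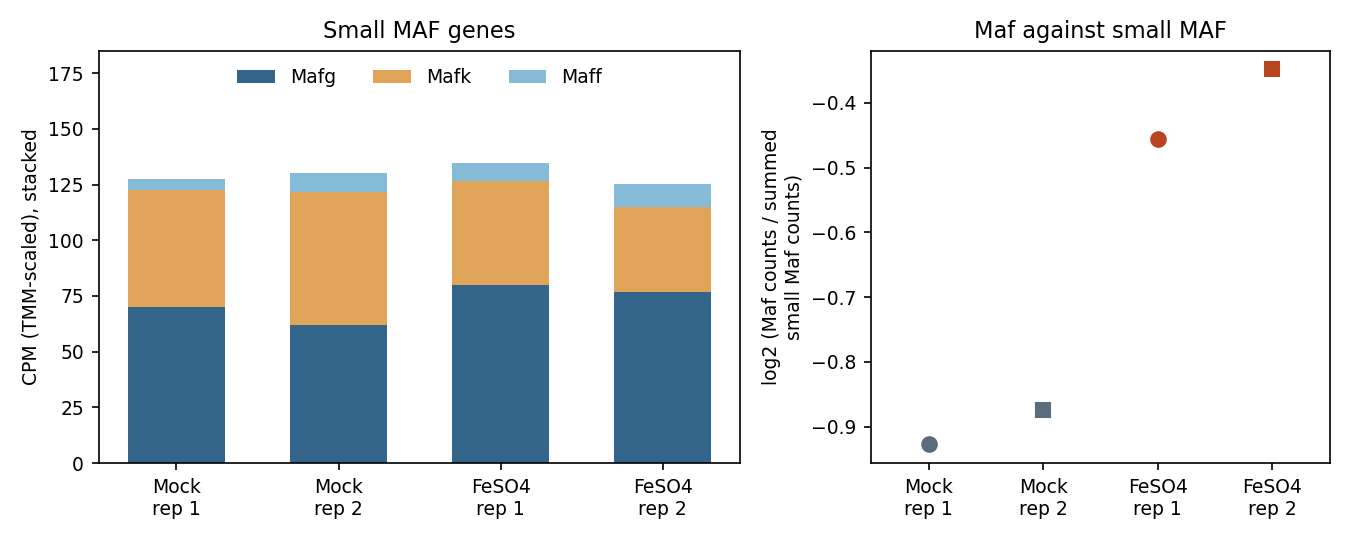
Left, CPM (TMM-scaled, linear axis from 0) of Mafg, Mafk and Maff stacked for each library; right, log2 ratio of Maf counts to summed small MAF counts for each library (circles replicate 1, squares replicate 2). The stacked heights overlap between groups at 125 to 135 CPM, while the log2 ratio is −0.93 and −0.87 in Mock and −0.46 and −0.35 in FeSO4.

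To compare levels between genes, CPM was divided by the length of the union of each gene's exons. On this scale of CPM per kilobase the order in Mock was Mafk (14.3 ± 1.38), Mafg (11.8 ± 1.02), Maf (8.37 ± 0.350) and Maff (3.14 ± 1.10; SD, n = 2). In FeSO4 the order was Mafg (13.9 ± 0.381), Maf (11.9 ± 0.000821), Mafk (10.9 ± 1.61) and Maff (4.26 ± 0.769). Mafk thus went from the most abundant member to the third. In FeSO4 the level of Maf lay within the range of the Mafk libraries (9.76 to 12.05), so on this length these neighbors did not differ beyond their spread, while in Mock no neighbors had overlapping libraries. With the longest transcript as the length, the order in each group was the same, but in FeSO4 Maf (15.4 in both libraries) then lay just above both Mafk libraries (15.2 and 12.3).

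The genes whose pattern over the 4 libraries was most like that of each member were found by the root mean square difference of centred log2 CPM, among tested genes with a symbol and a mean of at least 10 CPM. For Maf they were Eif2s2, a subunit of the translation initiation factor eIF2 (difference 0.0121), Stk38l and Lyar. For Mafg they were Cdc45, a helicase component of DNA replication (0.00248), Bbip1 and Hdac5. For Mafk they were 4931406P16Rik (0.0342), Gm962 and Synrg. For Maff the closest was Fos (0.0545), followed by Chd7 (0.120) and Mospd2. With 4 libraries and about 8437 candidates for each member, close matches are to be found for most patterns.

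The nearest genes that do not overlap the members had log2 fold changes on both sides of 0. Of them 1 passed the test, where 20% of all tested genes were called. Pcyt2, a phospholipid synthesis enzyme and the nearest gene with a symbol that lies on the lower side of Mafg without overlapping it, rose from 93.6 and 82.5 CPM in Mock to 123 and 132 CPM in FeSO4 (log2 fold change 0.53 ± 0.08, adjusted p = 0.000129). The genes beside Maff, Pla2g6 and Tmem184b, had log2 fold changes of −0.08 and −0.12. Those beside Mafk, Ints1 and Psmg3, had −0.13 and 0.17. None of these 4 passed the test. The snRNA gene named U6 on the lower side of Maf had 0 counts.

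The bZIP genes whose proteins are known to pair with small or large MAF proteins (CNC, BACH, FOS and JUN) were the next group. They were listed with earlier results of these data known, so their count is a description only. Of the 9 partner genes on the list 7 were tested: 1 was higher, 2 were lower and 4 did not pass (10.9% and 9.17% over all tested genes), with a median log2 fold change of −0.04 beside −0.00052 over all tested genes. Nfe2l2, which encodes the antioxidant activator NRF2, had 62.0 and 63.8 CPM in Mock against 87.0 and 78.3 CPM in FeSO4. Both FeSO4 libraries were above Mock, and Nfe2l2 rose with a log2 fold change of 0.39 ± 0.08 (adjusted p = 0.00199). Bach2, which encodes a repressor that restrains effector programs in T cells, had 55.9 and 65.9 CPM in Mock against 30.8 and 40.7 CPM in FeSO4. Both FeSO4 libraries were below Mock, and the change (−0.77 ± 0.11, adjusted p = 0.000158) was the widest among the tested partners, though it narrowly lost its call with no filter on low counts (adjusted p = 0.0533). Bach1, the heme-regulated repressor of Hmox1, had 26.6 and 32.5 CPM in Mock against 31.5 and 26.0 CPM in FeSO4 (−0.04 ± 0.12, adjusted p = 0.851), with overlapping groups.

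Set against the summed small MAF counts of the same library, Bach2 went from log2 ratios of −1.19 and −0.98 in Mock to −2.13 and −1.62 in FeSO4. Nfe2l2 went from −1.04 and −1.03 in Mock to −0.63 and −0.68 in FeSO4. The ratio of Bach1 overlapped between groups (means of −2.13 ± 0.18 in Mock and −2.18 ± 0.12 in FeSO4, SD, n = 2). These ratios share their denominator, and no test was made on them.

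Nfe2l1, a CNC factor known for inducing proteasome genes, had 105 and 106 CPM in Mock against 115 and 111 CPM in FeSO4 (0.10 ± 0.07, adjusted p = 0.318). Nfe2 and Nfe2l3 had at most 6 counts in a library and were not tested. Among the AP-1 factors, Jun had 191 and 244 CPM in Mock against 147 and 189 CPM in FeSO4 (−0.37 ± 0.11, adjusted p = 0.0228), with Mock replicate 1 only just above FeSO4 replicate 2. Jun lost this call without Mock replicate 2 (−0.17, adjusted p = 0.288), without FeSO4 replicate 1 (−0.19, adjusted p = 0.237) and with DESeq2 (adjusted p = 0.371), and its value was −0.56 without FeSO4 replicate 2. Fos (0.36 ± 0.15, adjusted p = 0.104) and Fosb (−0.26 ± 0.20, adjusted p = 0.399) did not pass, and in each the libraries overlapped. Both were higher in replicate 2 of each group, with Fos at 43.7 and 68.5 CPM in Mock against 62.2 and 81.4 CPM in FeSO4. Fos passed without Mock replicate 2 (0.72, adjusted p = 0.000847) and without FeSO4 replicate 1 (0.54, adjusted p = 0.00275), but its value was 0.06 without Mock replicate 1 and 0.15 without FeSO4 replicate 2. Fosb passed without Mock replicate 1 (−0.68, adjusted p = 0.000323) and without FeSO4 replicate 2 (−0.50, adjusted p = 0.0343), but its value was −0.06 without FeSO4 replicate 1 and turned to 0.32 without Mock replicate 2.

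Genes known as targets of dimers of small MAF with CNC or BACH factors were described next. This list was chosen with earlier results of these data known, so its count is a description only. Of 23 on the list 22 were tested, 15 were higher, 0 lower and 7 did not pass, where 10.9% of all tested genes were called higher and 9.17% lower. The median log2 fold change was 0.40. Srxn1, which repairs oxidized peroxiredoxins, had 1.82 and 2.06 CPM in Mock against 6.77 and 6.05 CPM in FeSO4, with a log2 fold change of 1.72 ± 0.24 (adjusted p = 0.000109). Gclm, the modifier subunit of the first enzyme of glutathione synthesis, had 139 and 119 CPM in Mock against 219 and 172 CPM in FeSO4 (0.60 ± 0.10, adjusted p = 0.000332). For both genes the FeSO4 libraries lay above the Mock libraries, as they did for 30.1% of tested genes. Thioredoxin (Txn1, 0.54 ± 0.07), transketolase (Tkt, 0.53 ± 0.07), peroxiredoxin 1 (Prdx1, 0.47 ± 0.06) and the heavy chain of the iron store ferritin (Fth1, 0.39 ± 0.06) rose as well, with adjusted p from 4.02e-05 (Txn1) to 0.000396 (Fth1). Reads of Fth1, Txn1 and Prdx1 can be shared with processed pseudogenes. Without FeSO4 replicate 1, 7 of the targets were called, and calls over all genes also fell, from 2750 of 13732 to 1603 of 14645.

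Genes linked to c-Maf in T cells were listed from general knowledge, with earlier results of these data known, so their count is a description only. Of 18 genes 13 were tested, 6 were higher, 0 lower and 7 did not pass, beside the same shares over all tested genes (10.9% higher, 9.17% lower). The median log2 fold change was 0.79. Il10, which encodes an anti-inflammatory cytokine, had 3.01 and 4.71 CPM in Mock against 9.84 and 13.1 CPM in FeSO4. The cytokine gene Il4 was low, with 26 and 43 counts in Mock against 113 and 177 in FeSO4 (0.641 and 1.03 CPM against 3.30 and 4.78 CPM). The FeSO4 libraries lay above the Mock libraries for both, as for 30.1% of tested genes. The log2 fold changes were 1.57 ± 0.22 for Il10 (adjusted p = 8.53e-05) and 2.27 ± 0.35 for Il4 (adjusted p = 0.000263). Prdm1, which encodes the effector regulator Blimp-1, rose from a low level of 28 and 43 counts to 92 and 150 counts (1.97 ± 0.36, adjusted p = 0.00112). The costimulatory receptor gene Icos had 104 and 104 CPM in Mock against 160 and 158 CPM in FeSO4 (0.61 ± 0.07, adjusted p = 7.21e-06). Lag3, an inhibitory receptor gene, had 66 and 46 counts in Mock against 112 and 126 in FeSO4. Its log2 fold change was 1.29 ± 0.31 (adjusted p = 0.00738), which did not pass without Mock replicate 2 (1.04). Il17a, at 7 to 33 counts in a library, had 1.89 ± 0.62 (adjusted p = 0.0408), and the call was lost whichever library was left out.

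A list of signaling and transcription factors upstream of or linked to Maf in T cells, here called inducers for short, had calls in both directions. It includes Hif1a, Epas1 and Arnt as HIF subunits, and not every gene on it is an established inducer. Like the other lists it was chosen with earlier results of these data known, and its count is a description only. All 17 were tested, 5 were higher, 3 lower and 9 did not pass, where 10.9% of all tested genes were called higher and 9.17% lower. The median log2 fold change was −0.02. The AP-1 factor gene Batf had 1039 and 1139 counts in Mock against 1439 and 1648 in FeSO4 (0.71 ± 0.09, adjusted p = 4.97e-05). Its partner in T cells, Irf4, had 113 and 124 CPM in Mock against 174 and 179 CPM in FeSO4 (0.57 ± 0.07, adjusted p = 2.31e-05). Rbpj, the DNA-binding effector of Notch signaling, had 84.8 and 87.9 CPM in Mock against 136 and 132 CPM in FeSO4 (0.63 ± 0.07, adjusted p = 7.21e-06). For these 3 genes both FeSO4 libraries lay above the Mock libraries, which was also so for 30.1% of tested genes. The aryl hydrocarbon receptor gene Ahr (0.50 ± 0.10, adjusted p = 0.00142) and Hif1a (0.49 ± 0.07, adjusted p = 0.000158) rose too, with Ahr at 0.31 (adjusted p = 0.0367) without FeSO4 replicate 1. Il6st, the signaling subunit of the IL-6 and IL-27 receptors, had 76.4 and 95.9 CPM in Mock against 61.5 and 68.5 CPM in FeSO4 (−0.41 ± 0.10, adjusted p = 0.00676), and it did not pass without Mock replicate 2 (−0.23, adjusted p = 0.111). The other lower genes were Il6ra (−0.23) and the TGF-β receptor gene Tgfbr1 (−0.25), both chosen for mention once values had been seen. Epas1, which encodes HIF-2α and was chosen in the same way, had 1.28 and 1.72 CPM in Mock against 0.963 and 1.43 CPM in FeSO4, and its interval was wide (−0.32 ± 0.39, adjusted p = 0.616). Without Mock replicate 2, 5 inducers were called, all of them higher, so that the 3 lower calls were lost. With no filter on low counts 4 were called, again all higher.

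**Figure D4:**
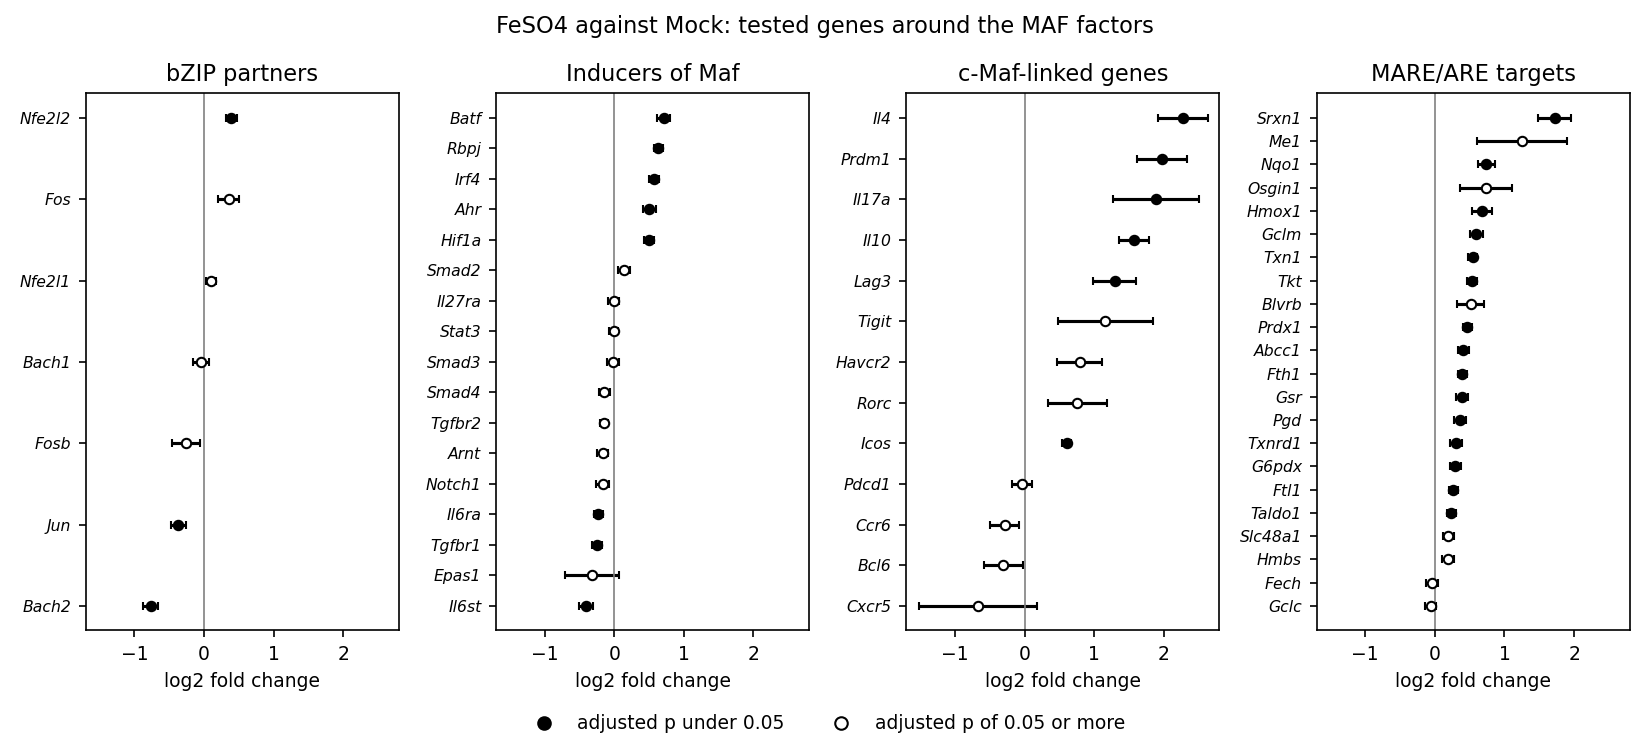
Log2 fold change (FeSO4 over Mock) with its standard error (bars) of the tested genes in 4 lists around the MAF factors, ordered by value. Filled points have an adjusted p under 0.05; called genes lie on both sides of 0 among partners and inducers, and only above 0 among the genes linked to c-Maf and the MARE and ARE targets.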

How the data were processed

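The authors deposited a table of raw counts, with 1 row per Ensembl gene. The submitters' processing notes name Trim Galore 0.6.7, STAR 2.7.9a, featureCounts and the build mm10, whereas the study's methods name mm9. The annotation, strand setting and use of molecular identifiers were not given in the sources used here. Positions and lengths come from GENCODE M1 (NCBIM37), for orientation, and 32799 of 47729 IDs matched a symbol there. Rows of reads assigned to no gene, among them reads with several alignments (4.27 to 4.62% as listed), were left out.

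Groups came from the labels. Counts were analysed in R 4.3.3 with edgeR 4.0.16 (filterByExpr, TMM, quasi-likelihood F test, Benjamini-Hochberg over 13732 genes). Intervals for single libraries are 95% Wilson intervals and cover counting error only. Alternatives were DESeq2 1.42.0, limma-voom 3.58.1, other scalings, no filter (at least 1 count), the replicate block and each library left out. The legacy quasi-likelihood fit was added after seeing the data. On simulated data, 56.1% of 98 genes changed by 0.5 on the log2 scale were called. Named genes were all members, other large MAF genes (1 of them is not reported here) and partners, the 6 genes of smallest p in each other list, the 3 closest patterns and the chromosomal neighbors. The members and lists were chosen with earlier results of these data known.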

Additional observations from a re-analysis of the deposited data

How the results depend on the processing

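Maf kept its direction and its call under all 12 alternatives, with adjusted p from 9.38e-08 to 0.0211. Mafg kept its direction but not its call under DESeq2 (0.24, adjusted p = 0.0595), upper-quartile scaling (0.22), library size only (0.18) and no filter (0.24, adjusted p = 0.159). Mafk lost its call with no filter (−0.39, adjusted p = 0.151). With no filter, which tests 22164 genes, 1 member, 1 partner, 5 MARE and ARE targets and 4 inducers were called, and 828 genes in all, against 2750 as reported. The cause was not tested. Bach2 (adjusted p = 0.0533), Jun, Ahr, Il6st, Il17a, Lag3 and Gclm also lost their calls with no filter.

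When each library was left out in turn, the log2 fold changes ranged from 0.46 to 0.56 (Maf), 0.12 to 0.86 (Maff), 0.16 to 0.32 (Mafg) and −0.55 to −0.25 (Mafk). The group left with 1 library was then assumed to vary like the other. Calls ranged from 1 to 3 members (1 without FeSO4 replicate 2), 3 to 4 partners, 4 to 6 genes linked to c-Maf, 7 to 16 targets and 5 to 8 inducers. Without FeSO4 replicate 1, 1603 genes were called. Of the named genes refitted under each alternative (Foxp3, Il6ra and Tgfbr1 were not among them), none that had passed the test changed direction. Of those that had not passed, Bach1 (0.12 without Mock replicate 2, 0.10 without FeSO4 replicate 2), Fosb (0.32 without Mock replicate 2) and Psmg3 (−0.03 without FeSO4 replicate 1) did. Among calls, 54.2% were higher as reported, 48.0% with upper-quartile scaling, 35.1% with library size only and 63.3% with no filter.

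The methods speak of paired samples from 2 experiments, and the labels number the libraries 1 and 2 in each group, but neither ties a number to an experiment. Deviations of same-numbered libraries were correlated with r = 0.03 (Pearson, across 13732 genes, not independent of each other), so whether the numbers mark the pairs is not known, and they were treated as shared numbers. With the replicate block 3427 genes were called, the count of members stayed at 3, and the log2 fold changes were 0.51 (Maf), 0.44 (Maff, adjusted p = 0.0666), 0.24 (Mafg) and −0.40 (Mafk). Fos passed under the replicate block (0.37, adjusted p = 0.00131).

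With the longest transcript as length, levels in Mock were 18.0 (Mafk), 13.5 (Mafg) and 10.8 (Maf) CPM per kilobase, and in FeSO4 15.9 (Mafg), 15.4 (Maf) and 13.7 (Mafk). With 2 libraries a group, changes of low genes such as Maff are the least precise.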
